A study of Homo sapiens with 18 samples.

Results

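The interferon-stimulated genes are the transcripts that cells switch on when interferons bind their receptors. A list of 52 of them was followed here through 3 perturbations of human urothelial cancer cell lines. The members were found by their symbol in the annotation of the array. 51 of the 52 carried a named probe, and all 51 were among the 11978 genes tested. STAT2 was not analysed here. Where a gene had several probes, the probe with the highest mean signal over the 18 arrays stood for it.

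Expression was measured on Illumina bead arrays in 6 groups of 3 arrays each. In UC14 cells, p63 shRNA was set against non-targeting shRNA. In Scaber cells, STAT3 siRNA was set against non-targeting siRNA. In UC7 cells, rosiglitazone, which activates PPARγ, was given at 1 µM for 24 h and set against control cells. All 3 lines were supplied by a tissue bank for bladder cancer and were grown with serum. p63 and STAT3 are transcription factors and PPARγ is a nuclear receptor. How many shRNA or siRNA sequences were used, whether the shRNA cells were 1 clone, and what vehicle the UC7 controls received are not given in the sources used here. Nothing in the labels says that arrays of 1 group came from separate cultures, so p-values cover only the array-to-array spread, part or all of it possibly technical. Each comparison sets cells in which 1 regulator was targeted beside their controls. Whether a change lies downstream of that regulator, or comes from the shRNA, siRNA or drug in another way, was not tested.

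Type I and type III interferons act through receptors, Janus kinases and STAT proteins, which join IRF9 in a complex that binds the interferon-stimulated response element in promoters. Type II interferon acts through a STAT dimer that binds the gamma-activated site. The induced genes code for sensors of foreign RNA, enzymes that degrade or sequester it, the ubiquitin-like modifier ISG15 and its ligases, antiviral GTPases, membrane proteins that block viral entry, and chemokines. Urothelial and other epithelial cells use this programme against viruses, and many tumour lines hold part of it on at rest.

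Promoter windows of RefSeq on build GRCh38.p14, from 250 bases before to 50 after each start, were at hand for 41 of the 51 tested members. Both strands were searched for the core of the interferon-stimulated response element, taken as GAAA, any 2 bases and GAAA, and for TTCNNNGAA, the gamma-activated site. The first motif stood in the windows of 31 of 41 members (75.6%), against 1195 of 27305 genes with a window (4.38%). The second stood in 14 of 41 members (34.1%), against 2560 of 27305 genes (9.38%). Overlapping matches were counted, and a match is a run of letters, not a measured binding site. The 250 bases before the start are shown for 4 members whose responses differ below: ISG15, which rose in UC14 and UC7, OAS1, which rose in all 3 lines, OAS3, which rose in UC7, and IRF9, which rose in UC14 and Scaber. All 4 lie on the plus strand and end just before the annotated start of the gene, ISG15 at chr1:1013247-1013496, OAS1 at chr12:112906712-112906961, OAS3 at chr12:112938224-112938473 and IRF9 at chr14:24161015-24161264. Capitals mark the matches.
ISG15: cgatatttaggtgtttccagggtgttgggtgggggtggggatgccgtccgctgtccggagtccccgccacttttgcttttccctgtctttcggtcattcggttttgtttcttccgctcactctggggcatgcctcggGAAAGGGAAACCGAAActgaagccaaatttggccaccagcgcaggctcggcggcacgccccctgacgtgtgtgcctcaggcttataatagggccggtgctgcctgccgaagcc
OAS1: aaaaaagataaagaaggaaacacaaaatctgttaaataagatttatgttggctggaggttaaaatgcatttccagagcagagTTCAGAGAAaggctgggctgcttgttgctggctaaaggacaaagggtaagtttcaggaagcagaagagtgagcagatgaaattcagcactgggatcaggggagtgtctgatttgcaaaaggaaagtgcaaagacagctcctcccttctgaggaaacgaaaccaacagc
OAS3: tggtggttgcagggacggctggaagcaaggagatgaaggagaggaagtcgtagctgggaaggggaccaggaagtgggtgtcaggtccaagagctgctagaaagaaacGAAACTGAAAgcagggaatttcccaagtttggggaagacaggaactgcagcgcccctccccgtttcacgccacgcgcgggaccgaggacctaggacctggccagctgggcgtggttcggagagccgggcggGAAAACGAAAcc
IRF9: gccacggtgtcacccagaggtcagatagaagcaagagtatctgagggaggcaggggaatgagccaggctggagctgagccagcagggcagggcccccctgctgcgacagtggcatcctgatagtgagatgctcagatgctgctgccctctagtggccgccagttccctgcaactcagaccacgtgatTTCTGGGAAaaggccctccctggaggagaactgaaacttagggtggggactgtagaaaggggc
ISG15 held 2 overlapping matches to the response element core, whose first bases lie at -113 and -107 from its start. OAS3 held 2 matches to the same core, at -143 and -12. OAS1 and IRF9 held no match to that pattern in this window, and each held 1 match to the gamma-activated site, in OAS1 at -168 and in IRF9 at -63. Near its end the OAS1 sequence reads GAAACGAAA, with 1 base between the GAAA runs, which the pattern does not match. A gene without a match may thus still hold a variant of the element.

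**Figure D1:**
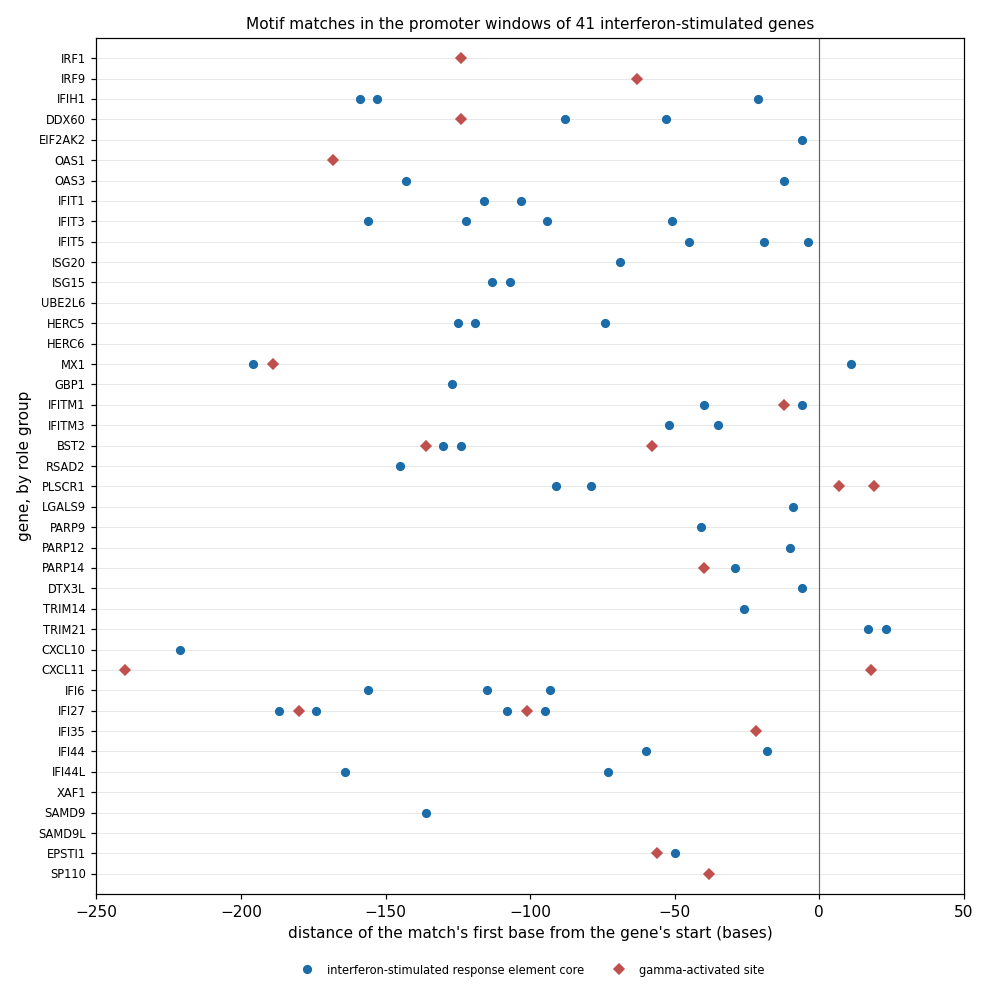
Matches to the interferon-stimulated response element core (circles) and to the gamma-activated site (diamonds) in the promoter windows of 41 members. The x axis is the distance in bases of the first base of a match from the annotated start that its window surrounds, and each row is a gene. Windows of a gene with several starts share a row, so a site can show more than once, as in IFI27 and IFI44. 31 genes hold a circle, and 4 rows (UBE2L6, HERC6, XAF1 and SAMD9L) hold no mark.

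Signal was normalized to a log2 scale on which the 18 arrays share 1 distribution over all probes, and a probe counts as detected when its detection p is under 0.01. A gene is called when its adjusted p is under 0.05 in limma with Benjamini-Hochberg adjustment over all 11978 genes. Errors beside a log2 difference are standard errors from that fit, with n = 3 arrays per group, and errors beside a group mean are SDs. The median raw signal of an array lay at 98.5 to 114 for UC14, at 96.3 to 115.8 for Scaber and at 51.6 to 56.3 for UC7. Array weights, which are low for arrays that scatter more, were 0.372 to 0.816 for UC14 and 1.07 to 2.48 for UC7, so the pooled error may be too small for UC14 and too large for UC7. The STAT3 transcript in Scaber was 6.42, 6.84 and 6.65 under STAT3 siRNA, against 9.89, 9.93 and 9.89 under non-targeting siRNA, which is 9.61-fold lower (log2 difference of -3.26 ± 0.11, limma adjusted p = 4.93e-12). The p63 transcript was not analysed here. All 6 epithelial markers, such as EPCAM and CDH1, were detected on all 18 arrays, while the leukocyte markers PTPRC, CD3D and CD3E and all 3 markers of plasmacytoid dendritic cells were detected on 0 arrays. Of the other leukocyte markers, CD68 was detected on 18 arrays, CD14 on 15, LYZ on 4 and MS4A1 on 2. Of the 6 fibroblast markers, COL1A1 was detected on 16, LUM on 14 and COL1A2 on 7, and of the 4 endothelial markers, PECAM1 was detected on 12 and CDH5 on 1.

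The members were on at different strengths in the control cells of the 3 lines. The median over the 51 members was 9.26 ± 0.02 in Scaber, 7.33 ± 0.06 in UC7 and 7.05 ± 0.02 in UC14 controls (log2 signal, SD over 3 arrays). All 3 Scaber control arrays lay above all 6 control arrays of the other lines. In control cells, 47 members were detected on all 3 arrays in Scaber, 44 in UC7 and 33 in UC14. Over all probes, a control array detected 17293 to 18021 in Scaber, 19963 to 20160 in UC7 and 14032 to 15287 in UC14. Scaber had the highest control mean for 38 of the 51 members, UC7 for 8 and UC14 for 5. The matching shares over all genes are not given here.

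Set against UC14 controls, Scaber controls were higher in 44 members and lower in 4, where 33.2% of all genes were higher and 35.3% lower. Scaber controls were at least 126-fold higher for IFI27, a mitochondrial protein, and at least 56.2-fold higher for UBE2L6, the conjugating enzyme for ISG15, both of them undetected in UC14 controls. Such a bound sets the brighter group against the higher of the gene's own signal and the lowest signal of any detected probe. MX2, BST2, the dsRNA-activated kinase gene EIF2AK2 and OAS3 were the 4 that were lower in Scaber. Against UC7 controls, Scaber controls were higher in 41 members and lower in 8 (32.3% and 43% of all genes). Of the members, UC14 controls were higher than UC7 controls in 13 and lower in 29 (32% and 41.5% of all genes). BST2, the tetherin that holds virions at the surface, stood out in the other direction, with UC14 at least 41.7-fold above UC7, where it was undetected. Line, control treatment and any array run cannot be told apart in these contrasts. UC14 controls carried non-targeting shRNA, Scaber controls got non-targeting siRNA, and UC7 controls are labelled only as control. When the arrays were scaled by their medians without quantile normalization, the median of all genes moved by over 0.1: to -0.87 for Scaber minus UC7 and -1.15 for UC14 minus UC7. The split of members then became 27 higher and 15 lower for Scaber against UC7, and 7 higher and 39 lower for UC14 against UC7. The shares of all genes called under this scaling are not given here for these contrasts. These counts of members therefore cannot be told apart from the shift of all genes.

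**Figure D2:**
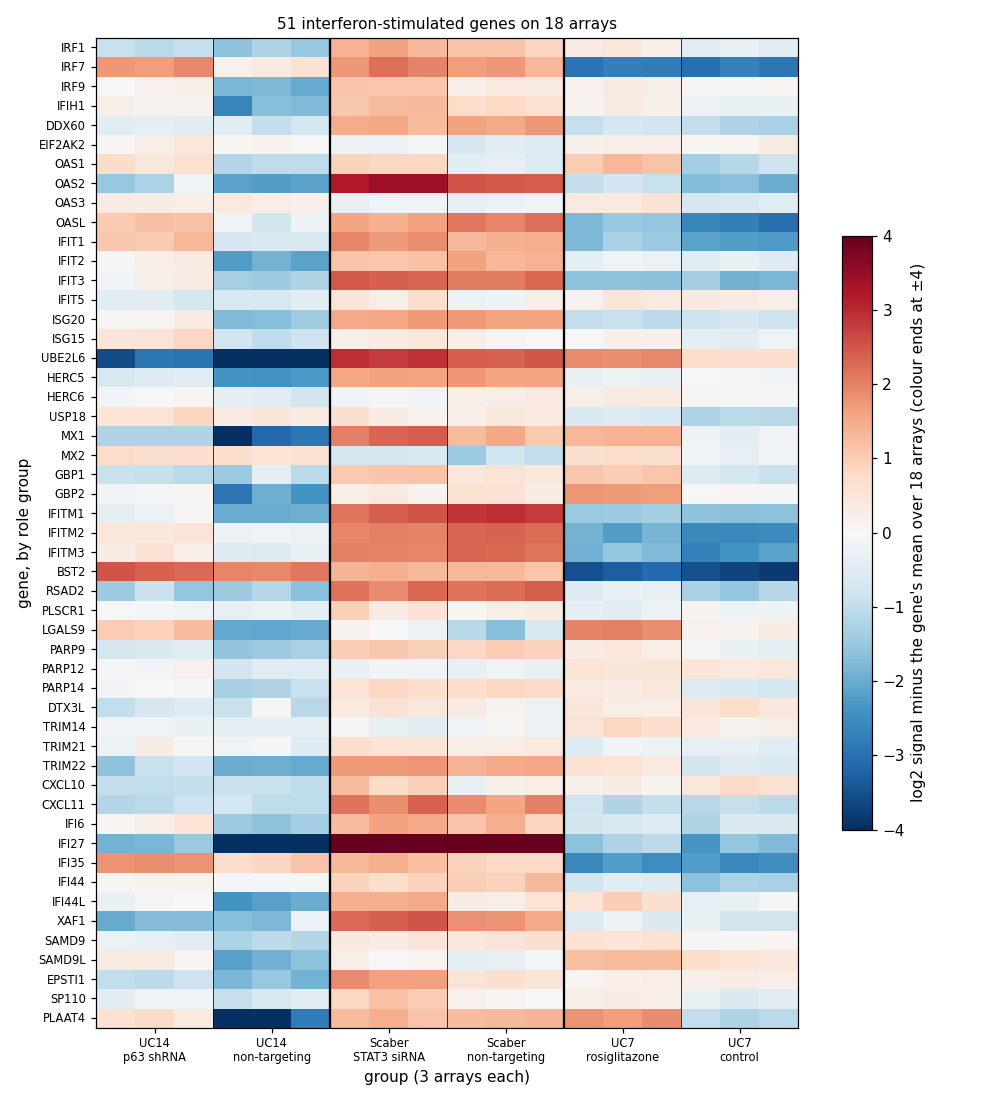
Log2 signal of the 51 members on the 18 arrays, each gene as the difference from its own mean over all arrays. Columns are arrays in the 6 groups and rows are genes by role group. Most rows are reddest in the 6 Scaber arrays, and the p63 shRNA arrays are redder than the non-targeting shRNA arrays of UC14 beside them.

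In UC14, p63 shRNA went with higher expression of most of the interferon-stimulated genes. Of the 51 members, 35 rose and 0 fell, where 23.8% of all genes rose and 20.9% fell. A further 16 were not called. The fitted rise was over 2-fold in 23 members, against 5.98% of all genes. In 14 members 1 or both groups were undetected. With these at their bound, or at no difference where none holds, 19 members rose by over 2-fold, UBE2L6, IFITM1, IFI27 and OAS2 being the other 4. The median fitted log2 difference over the members was 0.87, or 0.68 with the same members at their bound, against a fitted 0.01 over all genes. On each array, the median over the members was 8.10 ± 0.03 under p63 shRNA and 7.05 ± 0.02 under non-targeting shRNA (SD, n = 3 arrays each). In these bulk RNA samples, a larger share of cells that express the genes and more RNA per cell cannot be told apart.

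Of the 33 members that were detected on all 3 arrays of both groups, 24 rose. The share among all genes detected in the same way is not given here. Another 6 were undetected in both groups, and 1 of these, TRIM22, was called. Under median scaling 26.3% of all genes rose and 10.6% fell in UC14. The 3 p63 shRNA arrays lay above all 3 non-targeting arrays in 39 members, and below them in 0, against 24.7% and 22.3% of all genes. The summed raw signal of 7 leukocyte markers was 2772 to 3323 under p63 shRNA and 1491 to 1810 under non-targeting shRNA, with CD68 up by 1.26 and PECAM1, detected on 1 non-targeting array, up by 0.87. That of the 6 epithelial markers was 34158 to 45133 under p63 shRNA and 22915 to 29481 under non-targeting shRNA. Their part in the result was not tested.

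All 3 measured regulatory factors rose. IRF9, the DNA-binding subunit of the interferon-activated complex, was 9.19, 9.37 and 9.41 under p63 shRNA, against 7.37, 7.38 and 7.18 under non-targeting shRNA. The groups lay far apart and the difference was 2.02 ± 0.09 (4.05-fold, limma adjusted p = 2.15e-11). IRF7, which amplifies interferon gene expression, rose by 1.40 ± 0.14, its second probe was called higher but undetected under non-targeting shRNA, and IRF1, an activator also induced by type II interferon, by 0.48 ± 0.12.

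Among the 12 genes that sense or attack RNA, 8 rose. IFIT2, a tetratricopeptide protein that restrains translation of viral RNA, was 9.09, 9.38 and 9.44 under p63 shRNA, against 6.90, 7.22 and 6.97 under non-targeting shRNA (4.84-fold, limma adjusted p = 1.28e-10). IFIT1, its partner that binds improperly capped RNA, was 9.80, 9.77 and 10.03 under p63 shRNA, against 8.05, 8.07 and 8.08 (3.47-fold, limma adjusted p = 1.79e-09). The 2 groups were separate for both genes, though a second, dimmer IFIT1 probe, detected on 1 array of each group, differed by 0.23 and was not called. IFIH1, the sensor of long double-stranded RNA, was 7.94, 7.86 and 7.85 under p63 shRNA, against 5.07, 6.0 and 5.95, the first of which was undetected (4.63-fold, limma adjusted p = 2.26e-08). The exonuclease ISG20 rose by 1.78 ± 0.11. IFIT3 rose by 1.48 ± 0.14, while of its 2 dimmer probes 1 rose by 2.23 and 1 was not called (-0.13).

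The oligoadenylate synthetase family, whose product activates RNase L, did not move as one. OAS1 was 8.81, 8.53 and 8.68 under p63 shRNA, against 6.90, 7.06 and 7.06 (log2 difference of 1.67 ± 0.12), and its 2 further probes rose by 1.48 and 1.19. OASL, a relative without synthetase activity, was 9.30, 9.46 and 9.45 under p63 shRNA, against 8.11, 7.52 and 8.06 (log2 difference of 1.51 ± 0.15). Both separated the groups. OAS3 was 9.19, 9.15 and 9.08 under p63 shRNA, against 9.26, 9.10 and 9.04, and the groups overlapped. OAS2 was called, but it was detected on 1 of the 6 arrays, its log2 difference was 1.18, or 0.77 without p63 shRNA replicate 3, and its 3 further probes were undetected and differed by 0.04 to 0.11. IFIT5, undetected throughout UC14, EIF2AK2 (0.20 ± 0.11) and the helicase DDX60 (0.29 ± 0.13) were not called.

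In the ISG15 system, 4 of 5 members rose. HERC5, the ligase that attaches ISG15 to proteins, was 8.07, 8.21 and 8.24 under p63 shRNA, against 6.33, 6.29 and 6.41 under non-targeting shRNA (3.55-fold, limma adjusted p = 1.46e-11). The 3 values of each group lay close together and apart from the other group. ISG15 rose by 1.49 ± 0.12. HERC6, a related ligase gene, was 7.70, 7.81 and 7.89 under p63 shRNA, against 7.43, 7.38 and 7.06 (log2 difference of 0.51 ± 0.10). UBE2L6 was undetected under non-targeting shRNA and detected on 2 p63 shRNA arrays, which makes it at least 1.22-fold higher (limma adjusted p = 5.13e-08). The second UBE2L6 probe was undetected in both groups. The deconjugating enzyme USP18 differed by 0.26 ± 0.12 and was not called.

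The GTPases split into 2 that rose and 2 that were not called. GBP2, a guanylate-binding protein that acts on intracellular pathogens, was 9.78, 9.85 and 9.99 under p63 shRNA, against 7.03, 7.98 and 7.54 (5.12-fold, limma adjusted p = 7.08e-09). MX1, a dynamin-like inhibitor of influenza virus, was 7.77, 7.77 and 7.79 under p63 shRNA, against 4.68, 5.86 and 6.09, the first of which was undetected (4.70-fold, limma adjusted p = 1.77e-06). Both genes separated the groups, with a wide spread among the non-targeting arrays. Their relatives GBP1 (0.03 ± 0.18) and MX2 (0.09 ± 0.13) were detected on all 6 arrays and the groups overlapped.

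Of the 7 membrane proteins, 5 rose. LGALS9, the secreted and surface lectin galectin-9, was 7.41, 7.32 and 7.62 under p63 shRNA, against 4.34, 4.33 and 4.38, where it was undetected. It was therefore at least 3.14-fold higher (limma adjusted p = 7.84e-10). IFITM1, which blocks entry of enveloped viruses, was 6.05, 6.17 and 6.48 under p63 shRNA, against undetected values of 4.43, 4.43 and 4.47 (at least 1.35-fold, limma adjusted p = 1.12e-09). In both genes every p63 shRNA array was detected. IFITM2 was 10.80, 10.77 and 10.86 under p63 shRNA, against 10.09, 10.19 and 10.10 (log2 difference of 0.68 ± 0.09), and IFITM3 rose by 0.80 ± 0.14. The 3 IFITM genes are close paralogs, and cross-hybridization between their probes was not tested. BST2 rose by 0.38 ± 0.12, but was not called without p63 shRNA replicate 1 (0.32, adjusted p = 0.0576). The scramblase PLSCR1 differed by 0.21 ± 0.14, and RSAD2, which codes for viperin, was undetected in both groups.

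Among the PARP and TRIM proteins, 4 of 7 rose: PARP14 by 1.10 ± 0.10, PARP9 by 0.87 ± 0.10, PARP12 by 0.58 ± 0.10, and TRIM22, undetected in both groups and so given no size. DTX3L, the ligase partner of PARP9, differed by -0.02 ± 0.21. TRIM21 (0.28 ± 0.14) was not called either, and TRIM14 was undetected. The chemokines CXCL10 and CXCL11, ligands of the receptor CXCR3, were undetected in both groups.

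The other induced genes held the member with the largest fitted log2 difference. PLAAT4, an enzyme of phospholipid metabolism that retinoids also induce, was 9.83, 9.98 and 9.61 under p63 shRNA, against 5.05, 4.64 and 6.42 under non-targeting shRNA. It was detected on the last of these non-targeting arrays only, and the fitted difference was 4.44 ± 0.29 (limma adjusted p = 2.11e-09). Without background correction it was 3.15. All p63 shRNA arrays lay over 3 log2 units above all non-targeting arrays. IFI27 was 6.61, 6.68 and 7.02 under p63 shRNA, against undetected values of 4.38, 4.36 and 4.41 (at least 1.96-fold, limma adjusted p = 1.12e-08). SAMD9L, a brake on cell growth and translation, was 7.43, 7.41 and 7.15 under p63 shRNA, against undetected values of 4.88, 5.14 and 5.44 (at least 2.88-fold, limma adjusted p = 9.88e-10). IFI44L was 6.69, 6.90 and 7.02 under p63 shRNA, against undetected values of 4.59, 4.82 and 5.00 (at least 2.10-fold, limma adjusted p = 2.14e-09). These 3 genes were detected on every p63 shRNA array and on no non-targeting array, but the second IFI44L probe was detected on 1 array and not called (0.67).

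IFI6 rose by 1.78 ± 0.18, IFI35 by 0.92 ± 0.12, SAMD9 by 0.83 ± 0.09 and EPSTI1 by 0.79 ± 0.11. SP110, a nuclear body protein, rose by 0.44 ± 0.12, but was not called without non-targeting replicate 1 (0.32, adjusted p = 0.0509). Of its further probes, that at 0.52 was called higher. Those at 0.26 and -0.13 were not called, the last of them being undetected. IFI44 (0.17 ± 0.12) was not called. XAF1, a promoter of apoptosis, differed by -0.58 ± 0.29. It was called lower without non-targeting replicate 1 (-0.80, adjusted p = 0.04) or replicate 2 (-0.86, adjusted p = 0.0244). Its only detected value in UC14 was the 6.34 of non-targeting replicate 3. Dim genes lost size without background correction: 10 of the 35 differences shrank by over 1.5 times and stayed called, among them MX1 (1.33), IFIH1 (1.37) and LGALS9 (1.72). The mean of a gene's probes gave smaller values that stayed called for LGALS9 (1.80), IFI44L (1.37), IFIT1 (1.02), UBE2L6 (0.89), OAS2 (0.34) and SP110 (0.27).

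**Figure D3:**
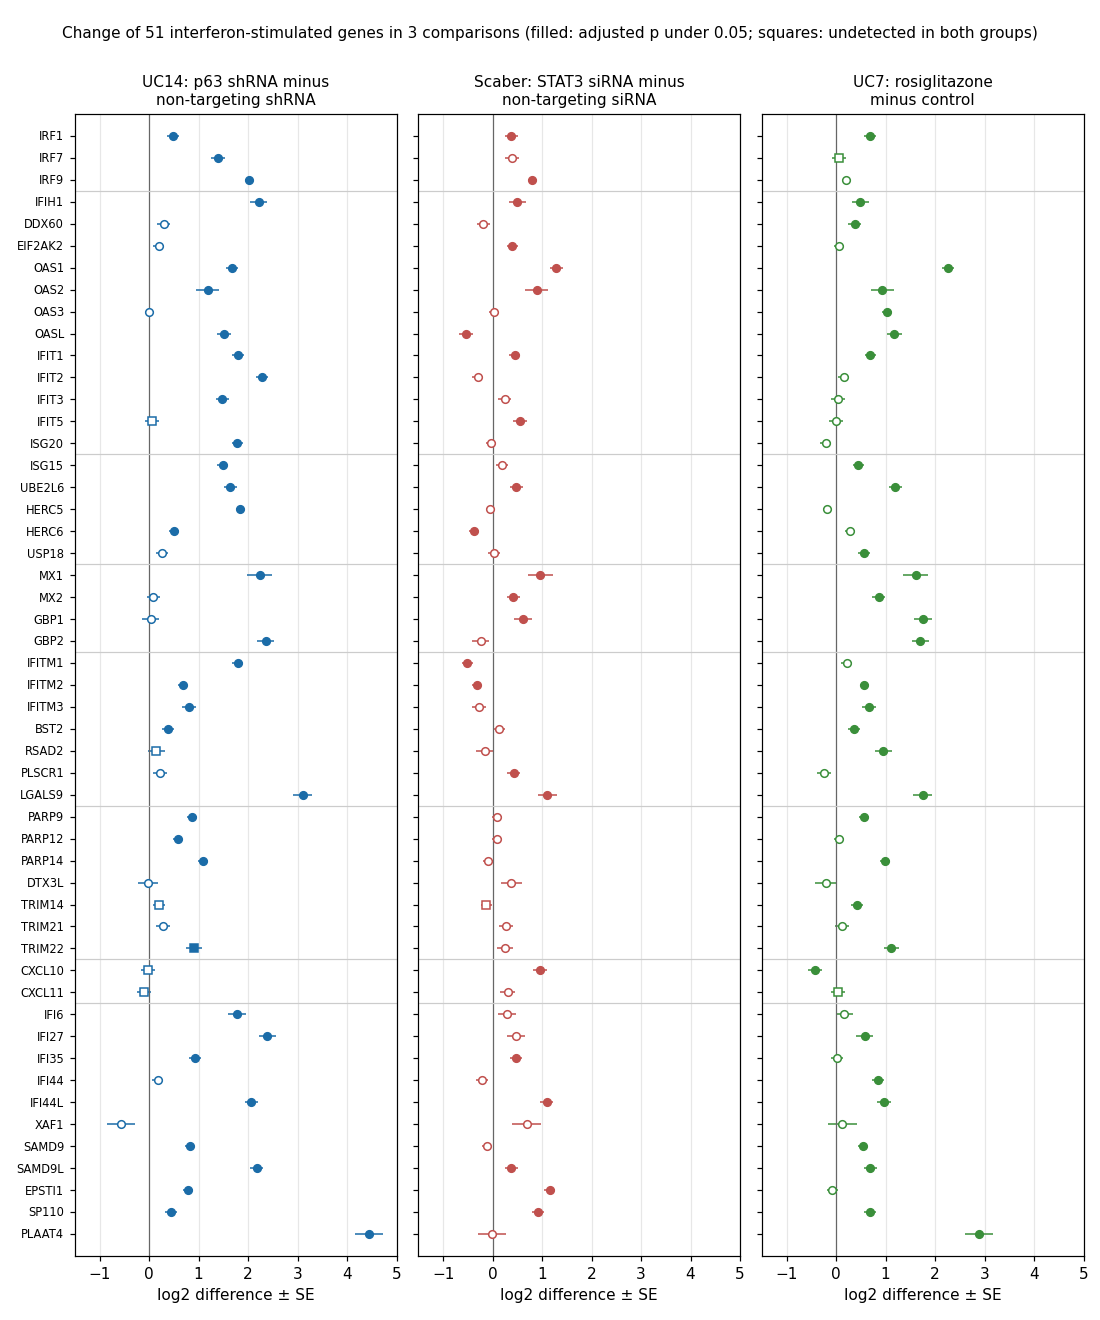
Log2 difference ± SE of the 51 members in the 3 comparisons, genes by role group. Filled marks passed an adjusted p of 0.05, and squares were undetected in both groups. In the UC14 panel 35 marks are filled, all of them right of 0, against 24 in Scaber with 4 of them left of 0 and 32 in UC7 with 1 left of 0.

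In Scaber, where the members were already high in the controls given non-targeting siRNA, STAT3 siRNA went with smaller changes in both directions. Of the 51 members, 20 rose and 4 fell, where 12.1% of all genes rose and 13.8% fell. A further 27 were not called. The rise reached 2-fold in 4 members, OAS1, EPSTI1, LGALS9 and IFI44L, against 0.468% of all genes. The median log2 difference was 0.29 over the members and 0.01 over all genes. On each array, the median over the members was 9.39 ± 0.13 under STAT3 siRNA and 9.26 ± 0.02 under non-targeting siRNA (SD, n = 3 arrays each).

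The counts in Scaber moved with the scaling. Under median scaling 11 members rose, namely CXCL10, EPSTI1, IFI44L, IRF9, LGALS9, MX1, OAS1, OAS2, SP110, UBE2L6 and XAF1, and the same 4 members fell as with quantile normalization, where 3.43% of all genes rose and 15.9% fell. The siRNA arrays lay above all non-targeting arrays in 26 members and below them in 6, against 19.9% and 19.2% of all genes. The summed raw signal of the 7 leukocyte markers was 2053 to 2407 under STAT3 siRNA and 3089 to 3630 under non-targeting siRNA, with CD14 (-1.13 ± 0.28) and CD68 (-0.31 ± 0.10) lower. That of the 6 fibroblast markers was 2441 to 2556 under STAT3 siRNA and 3149 to 4488 under non-targeting siRNA, with COL1A1 (-0.48 ± 0.11) and LUM (-0.45 ± 0.15) lower. Of the epithelial markers, KRT19 was lower (-0.91 ± 0.11) and CDH1 (0.34) and EPCAM (0.25) were higher. Their part in the result was not tested.

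The RNA-directed group held the largest rise. OAS1 was 8.99, 8.90 and 8.91 under STAT3 siRNA, against 7.67, 7.75 and 7.52 under non-targeting siRNA (2.45-fold, limma adjusted p = 1.19e-06). OAS2 was 9.78, 9.99 and 9.99 under STAT3 siRNA, against 9.08, 9.03 and 8.98 (1.86-fold, limma adjusted p = 0.00836). The groups were separate for both, the 2 further OAS1 probes rose by 1.06 and 1.06, and the 3 further OAS2 probes rose by 0.98 to 1.30. OAS3 differed by 0.02 ± 0.09. OASL went the other way, at 9.86, 9.69 and 9.91 under STAT3 siRNA, against 10.38, 10.23 and 10.48 under non-targeting siRNA (log2 difference of -0.54 ± 0.15, limma adjusted p = 0.0106). Its second probe differed by -0.45 and was not called (adjusted p = 0.0698).

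IFIT5, an RNA-binding relative of IFIT1, was 5.71, 5.44 and 5.92 under STAT3 siRNA, against 4.97, 5.01 and 5.43, of which 1 was detected (log2 difference of 0.56 ± 0.14, limma adjusted p = 0.00755). It was not called under median scaling (0.35). IFIT1 rose by 0.45 ± 0.11, EIF2AK2 by 0.40 ± 0.11 and IFIH1 by 0.50 ± 0.17. IFIT1 was not called under median scaling (0.38) or with the mean of its probes (0.33). EIF2AK2 was not called without STAT3 siRNA replicate 3 (0.34) or without non-targeting replicate 1 (0.33), nor was IFIH1 without any 1 of the 6 arrays (0.44 to 0.56). The members IFIT2 (-0.30 ± 0.12), IFIT3 (0.24 ± 0.14), ISG20 (-0.03 ± 0.11) and DDX60 (-0.19 ± 0.13) were not called. However, a further, dimmer IFIT3 probe rose by 0.67 (limma adjusted p = 0.0121). Another differed by 0.83 and was not called (limma adjusted p = 0.0579).

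Of the 3 factors, IRF9 was 10.33, 10.29 and 10.31 under STAT3 siRNA, against 9.39, 9.57 and 9.56 under non-targeting siRNA (1.75-fold, limma adjusted p = 5.65e-06), with no overlap. IRF1 rose by 0.38 ± 0.12, but was not called without STAT3 siRNA replicate 1 or 2 or without non-targeting replicate 3 (0.28 to 0.40). IRF7 differed by 0.39 ± 0.14 (adjusted p = 0.0514).

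Of the GTPases, 3 of 4 rose. MX1 was 11.00, 11.32 and 11.40 under STAT3 siRNA, against 10.24, 10.54 and 10.03 (1.95-fold, limma adjusted p = 0.00826). GBP1 was 10.45, 10.53 and 10.56 under STAT3 siRNA, against 9.85, 9.96 and 9.87 (1.54-fold, limma adjusted p = 0.0174). Both separated the groups, but GBP1 was not called without STAT3 siRNA replicate 3 (0.59) or without non-targeting replicate 1 (0.60), and its second probe was not called (0.48, limma adjusted p = 0.0986). The same 2 omissions ended the call of MX2 (0.42 ± 0.13), at 0.39 and 0.23. GBP2 differed by -0.24 ± 0.17.

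Among the membrane proteins, LGALS9 and PLSCR1 rose, while IFITM1 and IFITM2 fell. LGALS9 was 6.53, 6.42 and 6.17 under STAT3 siRNA, against 5.30, 4.71 and 5.79, of which the second was undetected (2.15-fold, limma adjusted p = 0.00029). IFITM1 was 8.57, 8.85 and 8.93 under STAT3 siRNA, against 9.28, 9.36 and 9.23 (log2 difference of -0.51 ± 0.11, limma adjusted p = 0.00239). IFITM2 was 12.30, 12.34 and 12.33 under STAT3 siRNA, against 12.68, 12.71 and 12.57 (log2 difference of -0.32 ± 0.09, limma adjusted p = 0.0135). In these 3 genes the groups did not overlap. IFITM3 differed by -0.28 ± 0.14 and was not called, like BST2 and RSAD2. The PLSCR1 call (0.42 ± 0.14) ended without STAT3 siRNA replicate 1 or 3 or without non-targeting replicate 1 or 2 (0.25 to 0.45).

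In the ISG15 system, UBE2L6 rose by 0.48 ± 0.14 and HERC6 fell. HERC6 was 7.71, 7.74 and 7.68 under STAT3 siRNA, against 8.06, 8.06 and 8.15 (log2 difference of -0.38 ± 0.10, limma adjusted p = 0.00937), again without overlap. ISG15 itself (0.19 ± 0.12), HERC5 (-0.05 ± 0.08) and USP18 (0.03 ± 0.12) were not called. None of the 7 PARP and TRIM proteins was called by limma, with differences of -0.13 to 0.38, and none had an unadjusted p under 0.05 either.

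CXCL10 was 6.68, 6.22 and 6.38 under STAT3 siRNA, against 5.11, 5.63 and 5.67, of which the first was undetected (1.94-fold, limma adjusted p = 9.78e-05). All STAT3 siRNA arrays were higher, and CXCL11 differed by 0.30 ± 0.15. Of the other induced genes, EPSTI1, an epithelial protein first described at the border with stroma, was 11.35, 11.10 and 11.10 under STAT3 siRNA, against 10.00, 10.11 and 9.97 (2.23-fold, limma adjusted p = 8.18e-07). IFI44L was 8.42, 8.41 and 8.52 under STAT3 siRNA, against 7.30, 7.23 and 7.54 (2.14-fold, limma adjusted p = 1.45e-05). SP110 was 9.09, 9.44 and 9.26 under STAT3 siRNA, against 8.43, 8.37 and 8.26 (1.88-fold, limma adjusted p = 4.39e-05). These 3 genes separated the groups, although the further IFI44L probe (0.23) and 1 of the 3 further SP110 probes (0.17) were not called.

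IFI35 rose by 0.48 ± 0.12, though not under median scaling (0.36). SAMD9L rose by 0.38 ± 0.13, but was not called without STAT3 siRNA replicate 1 or 3 or without non-targeting replicate 1 or 2 (0.32 to 0.38). XAF1 (0.69 ± 0.29), IFI27 (0.47 ± 0.18), IFI6 (0.29 ± 0.18), IFI44 (-0.22 ± 0.12), SAMD9 (-0.12 ± 0.09) and PLAAT4 (-0.01 ± 0.29) were not called. Without background correction, 5 of the 24 called differences shrank by over 1.5 times and stayed called, including LGALS9 (0.52) and CXCL10 (0.47). The mean of a gene's probes gave 0.66 for IFI44L, 0.61 for SP110 and 0.60 for LGALS9, all still called.

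In UC7, rosiglitazone went with a rise of most members. Of the 51 members, 31 rose and 1 fell, where 12.5% of all genes rose and 12% fell. A further 19 were not called. The rise was at least 2-fold in 10 members, against 2.24% of all genes. The median log2 difference was 0.53 over the members and 0.00 over all genes. On each array, the median over the members was 8.13 ± 0.04 with rosiglitazone and 7.33 ± 0.06 in controls (SD, n = 3 arrays each). The rosiglitazone arrays lay above all control arrays in 32 members and below them in 4, against 25% and 25.4% of all genes. The summed raw signal of the 7 leukocyte markers was 677 to 718 with rosiglitazone and 568 to 615 in controls, with CD14 higher (1.45 ± 0.28) and CD68 lower (-0.41 ± 0.10). That of the 4 endothelial markers was 496 to 546 with rosiglitazone and 263 to 280 in controls, with PECAM1 higher (1.74 ± 0.30). That of the 6 fibroblast markers was 460 to 471 with rosiglitazone and 363 to 403 in controls, with COL1A2 higher (0.78 ± 0.25). Of the 6 epithelial markers, EPCAM was lower (-0.31). Their part in the result was not tested.

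All 4 GTPases rose. GBP1 was 10.50, 10.41 and 10.52 with rosiglitazone, against 8.88, 8.75 and 8.52 in controls (3.39-fold, limma adjusted p = 1.32e-06). GBP2 was 11.69, 11.62 and 11.61 with rosiglitazone, against 9.92, 10.03 and 9.85 (3.26-fold, limma adjusted p = 7.85e-07). MX1 was 10.30, 10.36 and 10.36 with rosiglitazone, against 8.79, 8.55 and 8.85 (3.05-fold, limma adjusted p = 0.000116). The groups were separate in all 3 genes, the second GBP1 probe rose by 1.62, and MX2 rose by 0.86 ± 0.13.

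Of the RNA-directed genes, 7 of 12 rose. OAS1 was 9.08, 9.40 and 9.21 with rosiglitazone, against 6.71, 6.94 and 7.25 (4.79-fold, limma adjusted p = 7.8e-10), and its further probes rose by 1.92 and 1.95. OAS3 was 9.22, 9.24 and 9.43 with rosiglitazone, against 8.19, 8.24 and 8.38 (2.04-fold, limma adjusted p = 3.5e-07). OASL was 6.47, 6.74 and 6.73 with rosiglitazone, against 5.64, 5.50 and 5.25 (2.27-fold, limma adjusted p = 1.06e-05). The groups were separate in all 3 genes, but the second OASL probe, undetected in controls, was not called (0.25). OAS2, undetected in controls, was at least 1.67-fold higher (limma adjusted p = 0.00618), while its 3 further probes were undetected in both groups.

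IFIT1 rose by 0.69 ± 0.11, though not with the mean of its 2 probes (0.37, adjusted p = 0.0565). The call of DDX60 (0.38 ± 0.13) ended without rosiglitazone replicate 2 or 3 or without control replicate 2 or 3 (0.31 to 0.36). That of IFIH1 (0.49 ± 0.17) ended without any 1 of the 6 arrays (0.44 to 0.53). IFIT2, IFIT3, IFIT5, EIF2AK2 and ISG20 were not called, with differences of -0.21 to 0.15.

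Of the 3 factors, IRF1 rose in UC7 (0.69 ± 0.12). IRF9 was 9.36, 9.56 and 9.42 with rosiglitazone, against 9.25, 9.23 and 9.27 (log2 difference of 0.20 ± 0.09, limma adjusted p = 0.12), so that the groups did not overlap but the difference was not called. IRF7 was undetected in both groups. In the ISG15 system, UBE2L6 was 11.10, 11.06 and 11.12 with rosiglitazone, against 9.95, 9.87 and 9.87 (2.29-fold, limma adjusted p = 4.21e-06). Its second probe rose by 0.80. USP18 rose by 0.56 ± 0.12. ISG15 rose by 0.45 ± 0.12, though not under median scaling (0.39, adjusted p = 0.0692). HERC5 (-0.19 ± 0.08) and HERC6 (0.27 ± 0.10) were not called.

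LGALS9 led the membrane proteins, of which 5 of 7 rose. It was 8.40, 8.42 and 8.27 with rosiglitazone, against 6.58, 6.56 and 6.71 (3.36-fold, limma adjusted p = 1.85e-06), and its dimmer probe rose by 0.75. RSAD2, an enzyme that makes a chain-terminating nucleotide, rose by 0.95 ± 0.18, though it was undetected on control replicate 2. IFITM3 rose by 0.67 ± 0.14 and IFITM2, at 8.44, 8.11 and 8.47 with rosiglitazone, against 7.77, 7.74 and 7.79, by 0.57 ± 0.09. IFITM1 was detected on 1 array of UC7 and not called, and PLSCR1 differed by -0.25 ± 0.14. BST2, detected on 1 rosiglitazone array, was at least 1.06-fold higher with groups that overlapped, and was not called without rosiglitazone replicate 2 or 3 or without control replicate 2 or 3 (0.26 to 0.36).

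Of the PARP and TRIM proteins, 4 of 7 rose. TRIM22, a restriction factor, was 6.93, 6.89 and 6.74 with rosiglitazone, against 5.63, 5.83 and 5.74 (2.17-fold, limma adjusted p = 4.35e-05). PARP14 was 8.25, 8.21 and 8.30 with rosiglitazone, against 7.33, 7.27 and 7.18 (1.99-fold, limma adjusted p = 1.43e-06). Both genes separated the groups. PARP9 rose by 0.56 ± 0.10, though its second probe was not called (0.33). TRIM14 (0.42 ± 0.12) was not called without rosiglitazone replicate 2 (0.34) or without control replicate 2 (0.36), and was 0.66 under median scaling. DTX3L, PARP12 and TRIM21 differed by -0.21 to 0.12.

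CXCL10 was the 1 member that fell. It was 5.61, 5.72 and 5.54 with rosiglitazone, against 5.88, 6.22 and 6.03 in controls (log2 difference of -0.42 ± 0.14, limma adjusted p = 0.0399). The groups did not overlap, but the call ended without any 1 rosiglitazone array or without control replicate 2 or 3 (-0.46 to -0.33). It ended too without background correction (-0.20). CXCL11 was undetected in UC7.

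PLAAT4 again had the largest rise, at 11.01, 10.91 and 11.11 with rosiglitazone, against 8.22, 8.0 and 8.14 in controls (7.39-fold, limma adjusted p = 8.93e-07). IFI44L was 7.54, 7.97 and 7.65 with rosiglitazone, against 6.66, 6.70 and 6.90 (1.95-fold, limma adjusted p = 3.67e-05). The groups were separate in both, and the further IFI44L probe was not called (0.46). IFI44 rose by 0.84 ± 0.12, SAMD9L by 0.69 ± 0.13, SP110 by 0.69 ± 0.12 and SAMD9 by 0.53 ± 0.09. Of the further SP110 probes, that at 0.59 was called higher and those at 0.39 and 0.15 were not called. IFI27 rose by 0.58 ± 0.18, but was not called without rosiglitazone replicate 2 or 3 or without control replicate 1 (0.34 to 0.54). IFI6, IFI35, EPSTI1 and XAF1 were not called, with differences of -0.08 to 0.17. Without background correction, 11 of the 32 called differences shrank by over 1.5 times, and 4 of these calls ended, those of BST2, CXCL10, DDX60 and TRIM14. Among those that stayed called were TRIM22 (0.61), OASL (0.60), RSAD2 (0.40), OAS2 (0.38) and USP18 (0.24). The mean of a gene's probes gave 0.72 for OASL, 0.45 for SP110 and 0.29 for OAS2, all still called.

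**Figure D4:**
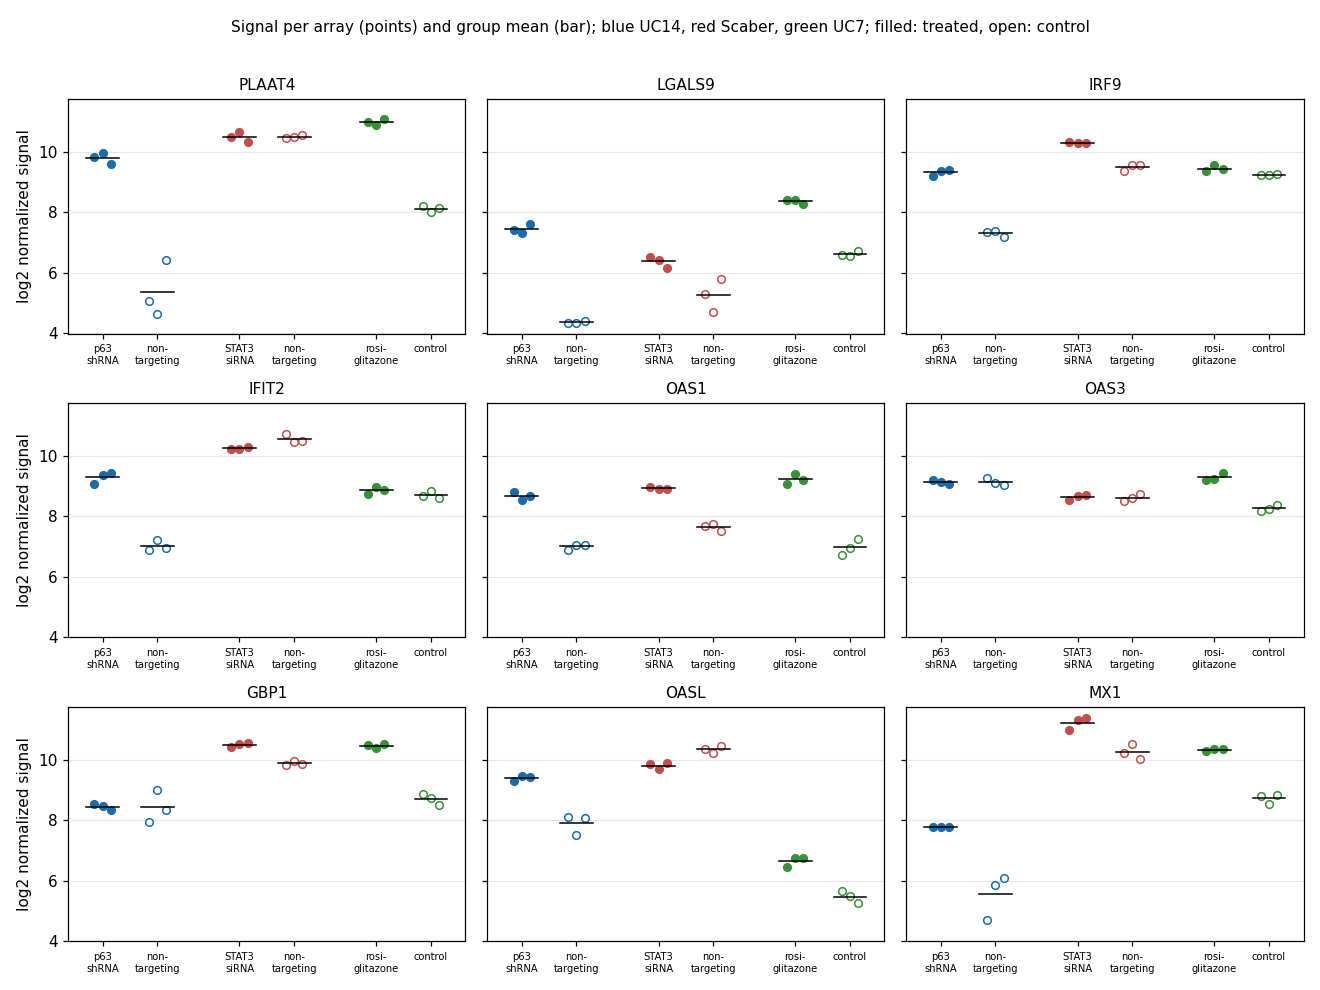
Log2 normalized signal of 9 members on each array (points) with group means (bars), treated groups filled and left of their open controls. For PLAAT4 the filled points lie 4.44 above the open ones in UC14, 2.89 above them in UC7 and among them in Scaber. OAS1 is higher in all 3 treated groups, and OASL is higher in UC14 and UC7 but lower in Scaber.

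The 3 comparisons use separate cells and separate controls. Of the 51 members, 11 rose in all 3 comparisons, against 0.977% of all genes: IRF1, IFIH1, OAS1, OAS2, IFIT1, UBE2L6, MX1, LGALS9, SAMD9L, SP110 and IFI44L. Of these, OAS1, OAS2, UBE2L6, MX1, LGALS9 and IFI44L were called under every alternative in each comparison. Taken alone, the further IFI44L and IFIT1 probes were not called in any comparison. Neither was the SP110 probe that differed by -0.13 in UC14, 0.17 in Scaber and 0.15 in UC7. The further OAS2 probes were undetected and not called in UC14 and UC7. The same held for the further UBE2L6 probe in UC14 and the further LGALS9 probe in Scaber. A rise in both UC14 and UC7 was seen in 23 members (6.34% of all genes), in both UC14 and Scaber in 14 (3.1%) and in both Scaber and UC7 in 13 (1.89%). With quantile normalization, the 4 members that rose in none, against 62% of all genes, were DTX3L, TRIM21, CXCL11 and XAF1. Of these, XAF1 was called higher in Scaber under 6 of 14 alternatives (0.56 to 0.69, limma adjusted p of 0.00128 to 0.0344). TRIM21 was called higher in UC14 under 2 of 14 (lowest limma adjusted p = 0.0195). CXCL11 was called higher in Scaber under 1 of 14 (limma adjusted p = 0.0487). OASL, IFITM1, IFITM2 and HERC6 rose in UC14 and fell in Scaber, with OASL and IFITM2 also rising in UC7. CXCL10 rose in Scaber and fell in UC7.

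The differences between these effects were tested directly. The effect of p63 shRNA in UC14 exceeded that of STAT3 siRNA in Scaber in 30 members and fell below it in 3 (23% and 19.1% of all genes). Among the 30 were PLAAT4 (4.45 ± 0.40), GBP2 (2.60), IFIT2 (2.58) and OASL (2.05), of which PLAAT4 was detected on 1 of 3 non-targeting arrays of UC14. SP110 (-0.47), XAF1 and CXCL10 went the other way, XAF1 being detected on 1 and CXCL10 on 0 of the 6 UC14 arrays. Against rosiglitazone in UC7, the p63 shRNA effect was higher in 20 members and lower in 6 (18% and 15.1% of all genes). IFIT2 (2.12), HERC5 (2.02), ISG20 (1.99) and IRF9 (1.82) were among the 20, and GBP1 (-1.73), OAS3 (-1.02), MX2 (-0.78), IFI44 (-0.67), OAS1 (-0.59) and RSAD2, undetected in UC14, were the 6. The STAT3 siRNA effect was higher than that of rosiglitazone in 5 members and lower in 21 (12.8% and 15.3% of all genes). CXCL10 (1.37), EPSTI1 (1.23), PLSCR1 (0.67), IRF9 (0.60) and IFIT5 (0.55) were the 5. PLAAT4 (-2.90) and GBP2 (-1.95) were among the 21. Line and intervention cannot be told apart in these differences.

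**Figure D5:**
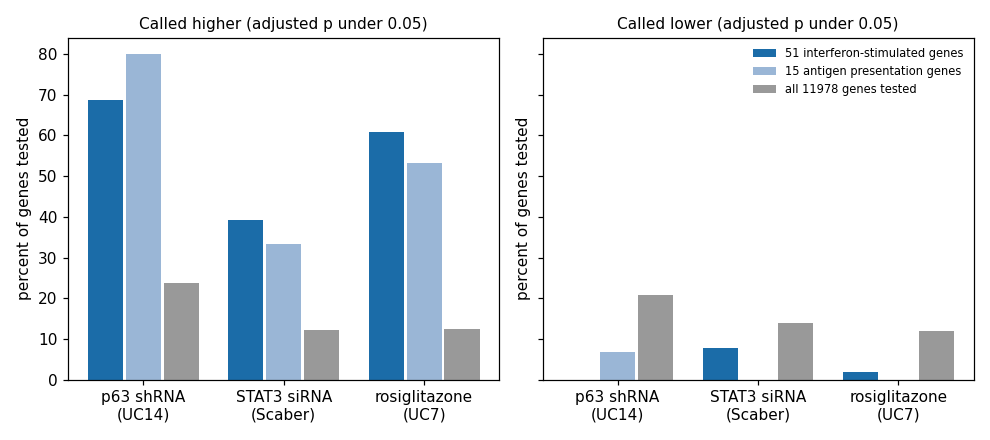
Percent of the 51 members, of 15 genes of antigen presentation and of all 11978 genes tested that were called higher (left) or lower (right) in each comparison, with bars from 0. The members reach 68.6% called higher under p63 shRNA, 39.2% under STAT3 siRNA and 60.8% with rosiglitazone, against 23.8%, 12.1% and 12.5% of all genes.

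The responses are given by promoter motif as a description. In UC14, 19 of the 31 members with the response element core in their window rose, and so did 8 of the 10 without it. In Scaber 11 of 31 with the motif rose and 1 fell, and 7 of 10 without it rose and 1 fell. In UC7 18 of 31 with the motif rose and 1 fell, and 5 of 10 without it rose. Median log2 differences with and without the motif were 0.80 and 0.72 in UC14, 0.24 and 0.48 in Scaber, and 0.42 and 0.48 in UC7. The 10 without it were IRF1, IRF9, OAS1, UBE2L6, HERC6, CXCL11, IFI35, XAF1, SAMD9L and SP110. A variant with other spacing, such as that in the OAS1 window, counts here as without it.

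Of 7 listed interferon genes, IFNB1, IFNK, IFNG and 3 lambda interferons were detected on 0 of 18 arrays. IFNE, an epithelial type I interferon, was detected on the 6 UC7 arrays and fell with rosiglitazone (log2 difference of -0.48 ± 0.12, limma adjusted p = 0.00872). Of 6 receptor chains, 1 rose in UC14, 2 fell in Scaber, and 2 rose and 1 fell in UC7. IL10RB, shared by the type III interferon receptor, rose by 0.75 ± 0.12 in UC14 and by 1.01 ± 0.12 in UC7, and was -0.22 ± 0.12 in Scaber, where it was not called. In Scaber IFNAR1 and IFNGR1 fell (-0.59 and -0.57).

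Of 7 kinases and signalling genes, SOCS3, the feedback inhibitor that STAT3 induces, fell in Scaber (-1.22 ± 0.15, limma adjusted p = 1.87e-05). It fell in UC14 as well (-0.65), where it was detected on 1 of 6 arrays. TYK2, a receptor-bound kinase, rose in UC14 (0.58) and JAK1 in UC7 (0.58). Altogether 1 of the 7 rose and 2 fell in UC14, 1 rose and 1 fell in Scaber, and 1 rose in UC7. For the receptor, kinase, sensor and antigen presentation lists, the shares of all genes that rose and fell were 23.8% and 20.9% in UC14, 12.1% and 13.8% in Scaber, and 12.5% and 12% in UC7. Of 16 nucleic acid sensors and adaptors, 6 rose and 3 fell in UC14, 2 rose and 1 fell in Scaber, and 1 rose in UC7. TLR3, the endosomal sensor of double-stranded RNA, rose by 0.95 ± 0.26 in UC14 and by 0.90 ± 0.26 in UC7. The DNA sensor IFI16 fell in UC14 (-1.54 ± 0.25). DHX58, a regulator of RNA sensing, was undetected under non-targeting shRNA and at least 1.26-fold higher under p63 shRNA (limma adjusted p = 1.57e-07).

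Genes of antigen presentation, which interferons also induce, were tested for 15 of 17 listed. In UC14 12 rose and 1 fell, in Scaber 5 rose and in UC7 8 rose. HLA-B, a class I heavy chain, rose by 2.39 ± 0.18 under p63 shRNA and its light chain B2M by 1.17 ± 0.11, while TAP2, a peptide transporter subunit, fell (-0.35 ± 0.10). In Scaber HLA-B (-0.28 ± 0.18) and B2M (0.01 ± 0.11) were not called, and neither were HLA-B (0.31 ± 0.18) and B2M (0.16 ± 0.11) in UC7. The transporter subunit TAP1 rose in all 3, by 0.37 ± 0.10 in UC14, 0.35 ± 0.10 in Scaber and 0.69 ± 0.10 in UC7. PSMB9, a subunit of the immunoproteasome, was undetected in UC14 and rose by 0.35 ± 0.11 in Scaber and 0.88 ± 0.11 in UC7.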

How the data were processed

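Total RNA of 3 urothelial cancer lines was measured on 18 Illumina arrays. Per the file headers, the authors exported from GenomeStudio non-normalized signal intensity values for 47323 probes, with a detection p-value per probe. The authors also deposited log2 values, quantile normalized over the arrays, which served as an alternative. The submitters' processing notes name limma, with no version. The neqc function of limma 3.58.1 (R 4.3.3, offset 16) used both to correct background, and then quantile normalized and took log2. Probes were named by the platform annotation (30113 with 1 symbol, 17202 unlisted, 8 with several symbols left out). A probe was kept when detected on all 3 arrays of a group, which left 16221 probes and 11978 genes. A model with 6 group means was fitted to all 18 arrays, so a gene has 1 pooled error (12 residual and 4.29 prior degrees of freedom). The fit was tested on simulated data. Values on every array are given, per comparison, for up to 12 called members with the largest differences and for those called in opposite directions. A fold for a group without detection is a lower bound. The number of arrays limits the precision. The members, lists and tests were chosen with earlier results of these data known. Alternatives were the authors' values, scaling, background, filter, probe choice, array weights, line-only fits, replicate blocks and leaving out each array. Motifs were searched with Python 3.11.15.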

Additional observations from a re-analysis of the deposited data

How the results depend on the processing

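No direction of a called member turned under any alternative run. Of the called members, 33 of 35 in UC14, 14 of 24 in Scaber and 24 of 32 in UC7 were called under every alternative. Calls were also gained by members given above as not called. Among these were IRF7 (6 of 14 alternatives) and IFI27 (4 of 14) higher in Scaber and HERC6 (4 of 15) higher in UC7. IFIT2 was called lower in Scaber under 3 of 14. The median over the members in UC14 was 0.99 under median scaling, 0.83 when probes of 1 gene were averaged, 0.65 without background correction, 0.65 with the authors' log2 values, and 0.80 to 0.91 with 1 array left out. In UC7 it was 0.47, 0.45, 0.37 and 0.37 under the first 4 of these, and in Scaber 0.17 under median scaling. The authors' values and those without background correction were nearly the same, such as 0.1601 in both for BST2 in UC7. They therefore do not count as separate checks. Median scaling also gave 11 members higher in Scaber, where 3.43% of all genes rose. Between controls it gave 27 higher and 15 lower for Scaber against UC7 and 7 higher for UC14 against UC7. It also gave 2 lower for Scaber against UC14 controls. Between effects it gave 3 higher for STAT3 siRNA against rosiglitazone and 3 lower for p63 shRNA against rosiglitazone. Under it the median of all genes became 0.19 for that last difference of effects and 0.23 for the p63 shRNA effect minus the STAT3 siRNA effect. The p63 shRNA effect was below the STAT3 siRNA effect in 5 members with the authors' values and in 5 without background correction. Members lower in UC14 numbered 0 to 1 with 1 array left out (XAF1). Members lower in UC7 numbered 3 with array weights, 0 to 1 with 1 array left out, and 0 with the authors' values, without background correction, without the detection filter and with either block. Of all genes, 2240 to 2457 fell in UC14 and 1127 to 1235 in UC7 with 1 array left out. With all arrays these were 2506 and 1442. For the other counts of members in this section, the share of all genes is not given. A change in the members is then not told apart from a change in all genes. With the replicate number as a block, 35, 19 and 28 members rose in UC14, Scaber and UC7. The labels do not say whether same-numbered arrays are paired. Their deviations correlated at -0.11 to 0.26, which cannot settle it with so few arrays, and in UC7 the numbers partly joined unlike title letters. A block by title letter in UC7, chosen after seeing the data, gave 28 higher and 0 lower. A slide block was not run, since the headers give no slide. The cause of these shifts was not tested. Array number and dim signal limit the reading: 33 members were detected on all UC14 control arrays.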
